A study of Mus musculus with 10 samples.

Results

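The regions described here are those at which the set of open chromatin peaks differed between untreated G1E-ER4 cells and cells after 24 h of GATA1 activation. G1E-ER4 is a mouse erythroid progenitor line that is null for Gata1, derived from G1E cells. It carries a transgene for a GATA1 protein joined to the hormone-binding part of the estrogen receptor, which is inactive until estradiol is added. All groups therefore carry the Gata1 deletion and the transgene, and differ only in the hours spent in β-estradiol at 1e-07 M (0, 2, 6, 12 or 24 h). Cells grew in IMDM with 15% FBS, 50 ng/mL SCF (the ligand of Kit) and 2 U/mL erythropoietin, and about 50000 cells entered each ATAC-seq reaction, in which the Tn5 transposase cuts accessible DNA. Each time point had 2 libraries, which the study describes as independent experiments. The line is 1 clone, and no untransduced control or estradiol-only control was analysed here.

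A region was built by extending every peak summit on chromosomes 1 to 19 and X by 250 bp on each side and merging the windows that overlapped among the 4 lists of 0 h and 24 h. This gave 20960 regions. A region was called lost when both 0 h lists and neither 24 h list held it, and gained in the reverse case. By this rule 1028 regions were lost (4.90% of all) and 510 were gained (2.43%), which makes 1538 changed regions. Another 7120 regions (34.0%) were held by all 4 lists and are called kept, and the remaining 12302 (58.7%) differed between replicates and are called mixed. Over the 10 libraries of the whole time course the same merging gives 28976 regions. The direction at 0 h and 24 h is what the rule selects, so it is a description and was not tested. A missing peak says only that the caller did not list it. Since both libraries of a time point must hold a region, leaving out any of the 4 libraries raised the counts, to 1525 to 3450 lost and 782 to 3811 gained regions.

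GATA1 and GATA2 are zinc finger transcription factors that bind the same short DNA words, AGATAA and TGATAA, in control regions of genes. GATA2 keeps blood progenitors proliferating and is needed for mast cells, whereas GATA1 drives red cell, megakaryocyte and mast cell maturation. When GATA1 becomes active it replaces GATA2 at many sites, among them sites at the Gata2 gene itself, and this exchange is known as the GATA switch. Erythroid maturation then brings heme synthesis, globins and the red cell membrane, while the receptor Kit and other progenitor genes are turned down.

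The lists differed more between replicates than between time points. The 0 h libraries had 15256 and 11697 peaks (13476 ± 2517, SD, n = 2) and the 24 h libraries 15570 and 10697 (13134 ± 3446, SD, n = 2). The difference of -343 peaks was smaller than the spread between replicates (exact permutation test, two-sided, p = 1.0, with 0.333 the smallest p that 2 against 2 libraries allow). No read totals come with the lists, so depth is unknown. Of 10 erythroid marker genes, 4 to 6 had a peak within 1 kb of a start in each of the 4 libraries, with Epor, Tfrc and Zfpm1 among those in all 4. Alas2, Slc4a1, Hba-a1 and Tal1 had none in any. Mast cell markers had 1 or 2 of 29, megakaryocyte markers 3 to 5 of 26, and neutrophil, lymphocyte and neuron or muscle markers had none.

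Sequences are shown for 5 lost and 3 gained regions that the results below turn on: the highest-ranked changed region of some genes of the lists for progenitor and erythroid transcription factors, cytokine receptors, mast cells, red cell membrane, heme synthesis and the BCL2 family, and of the tightest run of lost regions. Each is the 200 bp about the region's midpoint on the plus strand of mm10, 5′ to 3′, with every AGATAA or TGATAA and its reverse complement, TTATCT or TTATCA, in capitals. The 3 gained regions shown are not typical in this: each holds 2 or more of these words. Of all gained regions away from promoters, 43.4% held any and 11.1% held 2 or more.
Gata2, lost, chr6:88190608-88190807: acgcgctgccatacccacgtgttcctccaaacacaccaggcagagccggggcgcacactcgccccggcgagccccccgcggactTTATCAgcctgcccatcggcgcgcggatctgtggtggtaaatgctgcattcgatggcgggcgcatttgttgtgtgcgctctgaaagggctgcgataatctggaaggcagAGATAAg
Il1rl1, lost, chr1:40429281-40429480: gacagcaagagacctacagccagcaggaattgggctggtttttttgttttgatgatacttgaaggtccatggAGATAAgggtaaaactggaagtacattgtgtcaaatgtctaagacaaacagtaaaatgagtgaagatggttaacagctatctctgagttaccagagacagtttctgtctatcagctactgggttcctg
Cpa3, lost, chr3:20243978-20244177: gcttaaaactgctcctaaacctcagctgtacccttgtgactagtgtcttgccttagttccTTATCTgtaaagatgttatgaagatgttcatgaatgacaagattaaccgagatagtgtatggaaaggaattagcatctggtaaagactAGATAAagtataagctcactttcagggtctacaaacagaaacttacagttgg
Add2, lost, chr6:86103693-86103892: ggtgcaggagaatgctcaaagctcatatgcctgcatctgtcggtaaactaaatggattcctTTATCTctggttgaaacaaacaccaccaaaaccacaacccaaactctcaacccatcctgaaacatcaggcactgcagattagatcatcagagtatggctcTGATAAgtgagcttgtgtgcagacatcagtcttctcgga
Max, lost, chr12:77092219-77092418: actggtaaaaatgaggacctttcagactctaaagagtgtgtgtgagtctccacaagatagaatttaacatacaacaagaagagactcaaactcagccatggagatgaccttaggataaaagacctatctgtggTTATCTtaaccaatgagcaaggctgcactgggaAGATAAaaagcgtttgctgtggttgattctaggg
Uros, gained, chr7:133698072-133698271: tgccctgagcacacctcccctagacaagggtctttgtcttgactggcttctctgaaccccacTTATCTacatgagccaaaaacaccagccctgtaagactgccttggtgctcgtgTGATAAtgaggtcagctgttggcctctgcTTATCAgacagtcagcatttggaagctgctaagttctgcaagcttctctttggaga
Foxo3, gained, chr10:42265157-42265356: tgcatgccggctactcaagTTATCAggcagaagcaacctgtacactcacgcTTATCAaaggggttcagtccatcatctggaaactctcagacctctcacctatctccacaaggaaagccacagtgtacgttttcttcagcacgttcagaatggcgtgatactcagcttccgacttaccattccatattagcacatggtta
Bcl2l1, gained, chr2:152817607-152817806: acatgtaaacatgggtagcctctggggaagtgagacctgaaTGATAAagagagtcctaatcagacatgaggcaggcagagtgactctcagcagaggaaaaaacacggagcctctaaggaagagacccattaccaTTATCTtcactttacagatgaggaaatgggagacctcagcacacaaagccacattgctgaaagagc

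Lost regions lay mostly away from promoters. A promoter region is one within 1 kb of a transcript start of a protein-coding gene, and any other is called distal. Only 132 of the 1028 lost regions (12.8%) were at promoters, against 130 of the 510 gained regions (25.5%) and 77.9% of kept regions. The order of the first pair rested on both 24 h libraries: it was 25.6% lost and 24.4% gained without 24 h replicate 1, and 29.1% lost and 19.5% gained without 24 h replicate 2. Introns held 42.8% and intergenic DNA 42.1% of the lost regions, and 37.8% and 32.5% of the gained ones. Seen from the places themselves, 7.62% of the 11751 distal regions were lost and 3.23% were gained. Among the 9209 promoter regions the shares were alike, 1.43% lost and 1.41% gained.

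**Figure D1:**
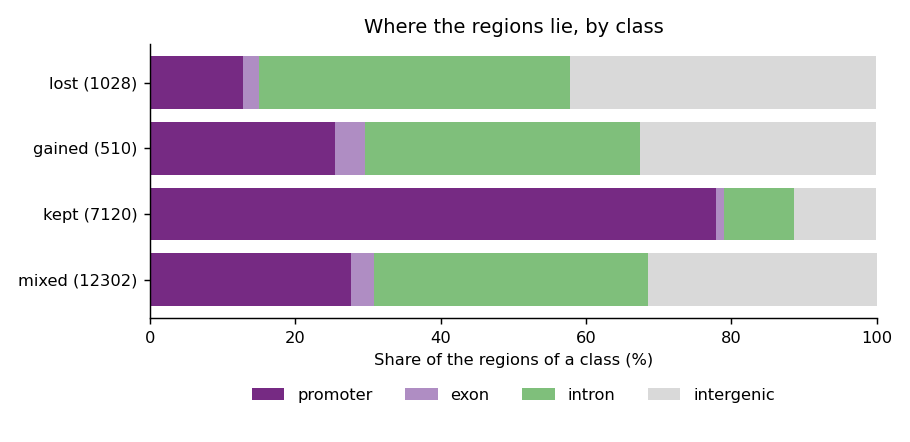
Share of the regions of each class (x axis, %) that lay at a promoter (within 1 kb of a start), in an exon, in an intron or between genes, for the lost, gained, kept and mixed regions of the 4 lists (number of regions in brackets). The promoter share is 12.8% for lost, 25.5% for gained and 77.9% for kept regions.

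Distal lost regions were also farther from genes. Their median distance to the nearest start was 30.4 kb (interquartile range 12.0 to 77.1 kb), and 176 of them (19.6%) were more than 100 kb from any start. Distal gained regions had a median of 13.2 kb (7.30 to 33.2 kb) and 5.53% lay beyond 100 kb. Kept distal regions had a median of 18.4 kb and 8.79% beyond 100 kb. With any of the 4 libraries left out, the median was 23.6 to 28.9 kb for lost and 14.6 to 19.2 kb for gained regions. The share beyond 100 kb was then 13.5% to 18.4% for lost and 4.81% to 11.9% for gained regions, the highest of the latter without 24 h replicate 1. The G+C content of distal windows was 45.8% in lost, 50.8% in gained and 53.5% in kept regions, with an SD over regions of 6.43 to 8.33 percentage points. The share of distal regions made mostly of repeat-masked sequence was 2.79% in lost and 3.16% in gained regions.

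GATA words were frequent in the distal lost regions. A GATA word (AGATAA or TGATAA on either strand) stood in the central 200 bp of 650 of the 896 distal lost regions (72.5%), and 368 of them (41.1%) had 2 words or more. Of the 380 distal gained regions 165 had a word (43.4%) and 11.1% had 2 or more. Kept distal regions gave 44.1% and 15.9%, and all distal regions together 40.9% and 13.6%. The gained regions were thus near the kept ones and the lost regions stood above both. A high share was not particular to lost regions. Of 184 distal regions held by both 0 h lists and 24 h replicate 2, 67.9% had a word. With 24 h replicate 1 in place of replicate 2 it was 49.2% of 691. With 1 library left out, 51.3% to 71.8% of distal lost and 30.2% to 42.8% of distal gained regions had a word, and the lost share was the higher in all 4 cases. At promoters the shares were 19.7% of lost, 13.8% of gained and 4.16% of kept regions.

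The words were centred on the summits. Within 50 bp of the highest summit, 52.1% of distal lost regions had a GATA word, against 26.6% of gained, 30.1% of kept and 22.6% of mixed regions. In 25 bp bins the share of lost regions with a word was 17.3% just after the summit. It was 3.01% at the left edge of the 1 kb window and 4.80% at its right edge. Gained, kept and mixed regions stood at 2.37%, 2.55% and 2.53% at the left edge and at 1.32%, 1.85% and 2.67% at the right edge.

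**Figure D2:**
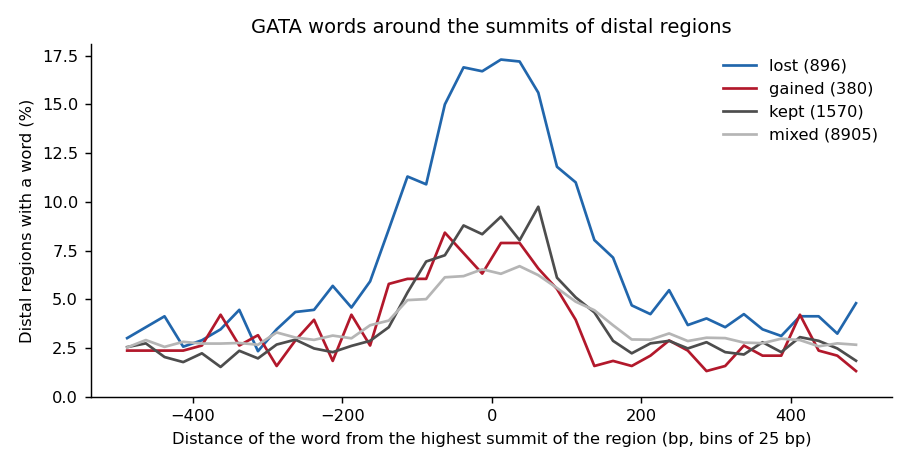
Share of distal regions with a GATA word (y axis, %) in bins of 25 bp by distance from the highest summit of the region (x axis, bp), for lost, gained, kept and mixed regions (number of regions in brackets). The line for lost regions rises to 17.3% beside the summit, above the other 3 classes. All 4 lines are low away from it, and lost regions still stand highest at the right edge (4.80%).

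The share with a word was highest in the lost regions of high rank, and higher where both 0 h libraries held a region than where 1 did. Each peak was ranked by its score, −log10 of the q-value given by the peak caller, inside its own list, and the rank is given as a percentile with 100 the highest. When the distal lost regions were divided into 4 equal groups by mean percentile, from lowest to highest, 63.8%, 62.5%, 77.7% and 86.2% had a GATA word. For distal gained regions the 4 groups gave 35.8%, 42.1%, 45.3% and 50.5%. Distal regions held by 0 h replicate 1 alone had a word in 42.7%, and those held by 0 h replicate 2 alone in 48.7%. Those held by a single 24 h library gave 28.6% (replicate 1) and 30.4% (replicate 2).

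Among the other short words, the one of KLF factors differed most between the classes, and was less frequent in lost than in kept regions. CCNCNCCC, read by KLF factors, stood in 18.1% of distal lost, 28.2% of gained, 36.2% of kept and 25.1% of all distal regions. TGANTCA, read by AP-1, gave 11.3%, 8.42%, 8.09% and 8.95% in the same order. TGTGGT, read by RUNX factors, gave 23.1%, 18.7%, 18.7% and 20.2%. GGAAGT, read by ETS factors, gave 17.0%, 15.5%, 20.3% and 19%. CAGNTG, the E-box core read by TAL1 and its partners, stood in 45.9% to 49.1% of the regions of every class. All words were counted on both strands of the same 200 bp, and words of different kinds may overlap or lie side by side.

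Most changed regions were weak peaks in the lists that held them. The median percentile of lost regions was 39.8 in 0 h replicate 1 and 31.9 in replicate 2, and that of gained regions was 34.7 and 23.5 in the 24 h libraries. Kept regions had medians of 73.2 and 66.2 in the 0 h lists. Only 171 lost regions (16.6%) were in the upper 50% of both 0 h lists, and 30 gained regions (5.88%) in the upper 50% of both 24 h lists, against 4231 kept regions (59.4%) for the 0 h lists. A summit of the other time point lay within 1000 bp of 56 lost regions (5.45%) and of 50 gained regions (9.80%). At promoters these shares were 15.9% and 23.8%.

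The lost regions of highest rank lay at scattered genes. The first was 30.7 kb upstream of Dppa4, a gene of pluripotent cells, with −log10 q of 21.8 and 20.1 in the 0 h libraries (percentiles 97.6 and 94.4), and all 6 libraries of 2, 6 and 12 h still listed it. Regions near Nxpe2, Acot4, Emsy, Pabpc2, Slc2a9 (a urate and sugar transporter), Slc45a3 and Vwc2l followed. Promoters among the 10 highest were those of Klf11, a KLF family transcription factor, and Il1rl1, the receptor for interleukin-33 that is prominent on mast cells.

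Promoters were also among the gained regions of highest rank. The first was at the Klf11 promoter, with −log10 q of 19.1 and 16.3 at 24 h (mean percentile 92.9), and is described below. Tubgcp5, a subunit of the γ-tubulin ring complex, had a gained region 1 bp from its start with −log10 q of 12.4 and 14.3 (percentiles 90.2 and 83.5), listed in all 6 intermediate libraries. Itgb7, an integrin chain of lymphocytes and mast cells, gained a promoter region with 11 and 8.44. Promoters of Nit1 (8.99 and 8.09) and Rai1 (6.97 and 8.54) were among the 30 highest. Distal regions of the first 10 lay near Mroh3, Trim8, Ssbp3, Noct (a circadian deadenylase family member), Rfwd3, Nucb1 and Fryl.

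At 7 places a lost and a gained region lay within 1000 bp of each other. The strongest was the Klf11 promoter. The lost region, chr12:24650967-24651475, was centred 53 bp upstream of the start with −log10 q of 17.3 and 20 at 0 h, and the gained region, chr12:24651630-24652232, was centred 657 bp downstream with 19.1 and 16.3 at 24 h. Their edges were 154 bp apart. So at this promoter a summit was listed in each of the 4 libraries, and its position differed between 0 h and 24 h. Of the 6 intermediate libraries 5 listed the lost region, among them both 12 h libraries. The gained region was listed in 2 of the 6, 6 h replicate 1 and 12 h replicate 1. The other pairs were near Nck2, Car3, Igsf3, Cdyl, Ncoa4 (the receptor for ferritin turnover) and Ms4a6d, where the gap between the regions ran from 68 to 810 bp.

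Presence in the 6 libraries of 2, 6 and 12 h was not used by the rule. Lost regions were listed in 60.0% and 63.3% (2 h, replicates 1 and 2), 41.6% and 79.4% (6 h) and 41.0% and 44.4% (12 h). Gained regions were listed in 51.8% and 43.9%, then 51.8% and 77.1%, then 55.9% and 52.9%. Kept regions were at 94.9% to 99.5% throughout, and mixed regions at 37.0% to 58.7%. The highest values for both lost and gained regions came from 6 h replicate 2, which has the longest list with 19855 peaks. At 12 h the lost regions were thus near the mixed ones (43.2% and 37.0%), and the gained regions were above them.

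**Figure D3:**
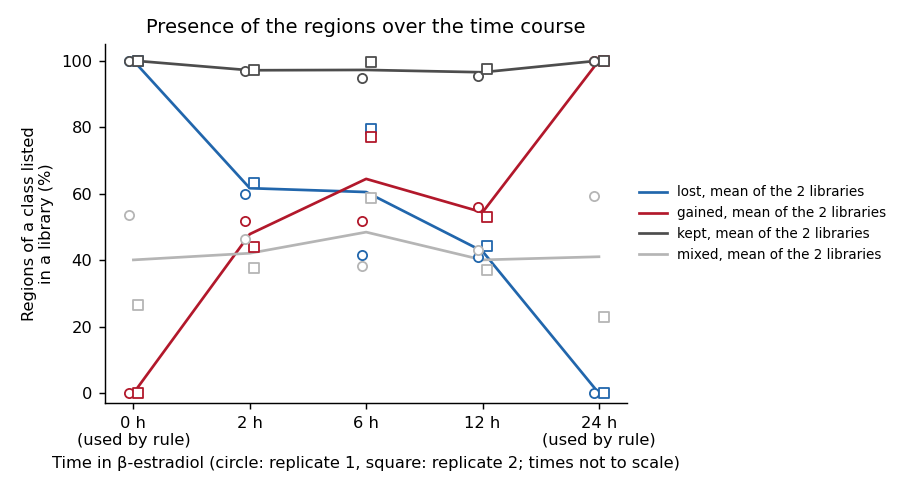
Share of the lost, gained, kept and mixed regions listed in each of the 10 libraries (y axis, %) by time in β-estradiol (x axis, not to scale). Circles are replicate 1, squares replicate 2 and lines the mean of the 2 libraries, and 0 h and 24 h are fixed by the rule for all classes but mixed. Lost regions fall from 60.0% and 63.3% at 2 h to 41.0% and 44.4% at 12 h, with 6 h replicate 2 above both.

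The trend over these 6 libraries did not pass a test. The share of lost regions had a Pearson's r of -0.583 with hours (exact permutation test, two-sided, n = 6, p = 0.200, adjusted over 2 relations 0.400) and a Spearman's rank correlation of -0.598 (p = 0.267, adjusted 0.267, exact permutation). Without the 2 libraries farthest from the median time r was -0.0435. For gained regions r was 0.189 (exact permutation, n = 6, p = 0.789, adjusted 0.789) and the rank correlation was 0.667 (p = 0.178, adjusted 0.267, exact permutation), and r was 0.663 without those 2 libraries. With each of the 6 lists cut to its best 13826 peaks, lost regions gave r of -0.726 (exact permutation, n = 6, p = 0.111, adjusted 0.111) and gained regions 0.799 (exact permutation, n = 6, p = 0.100, adjusted 0.111). Without the same 2 libraries these were -0.471 and 0.979. The rank correlations in the equal lists were -0.717 and 0.788 (exact permutation, n = 6, p = 0.178 and 0.111, both adjusted to 0.178). In those equal lists the lost regions stood at 51.1% and 62.3% at 2 h and 34.2% and 44.4% at 12 h, and the gained regions at 39.2% and 42.2% at 2 h and 51.0% and 52.9% at 12 h.

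Most changed regions were listed in some but not all of the 6 intermediate libraries (858 lost and 426 gained). Both libraries of a time point listed 446 lost regions at 2 h (43.4%), 389 at 6 h (37.8%) and 257 at 12 h (25%). All 6 intermediate libraries listed 109 lost regions, and none listed 61. For gained regions both libraries listed 137 at 2 h, 229 at 6 h and 172 at 12 h, all 6 listed 53, and none listed 31. Distal gained regions that both 12 h libraries already held had a GATA word in 58.5%, against 34.6% of those that neither held. For distal lost regions the same shares were 73.3% and 77.2%. The groups also differed in rank: the median percentiles were 37.1 and 24.2 for these gained regions and 47.0 and 30.3 for the lost ones. Rank and presence at 12 h were not separated.

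Changed regions were spread over many genes. The nearest start belonged to 898 genes for the lost and 490 genes for the gained regions, out of 10989 genes nearest to any region (8.17% and 4.46%). Most of these genes had 1 lost region (796), 82 had 2 and 20 had 3 or more, and no gene had more than 2 gained regions. At 72 genes both kinds were found, and 159 genes had lost regions and no region of any other class. A nearest gene is a position, and no expression was measured in these files.

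The genes with most lost regions differed in how far these lay from a start. Nova1, a neuronal splicing regulator, was the nearest gene to 7 lost regions of 22, at distances from 202 to 1268 kb, and all 7 had a GATA word. Rapgef2, an exchange factor for the small GTPase Rap1, had 5 of 19, from 83.5 to 1427 kb. Cdh9, a cadherin, had 4 of 11, and Stpg2 had 4 of 6, the nearest of them 499 kb from its start. Angpt1, Cd55b, Max, Gm9817, Hipk2 and Dpf3 had 3 each, those of Dpf3 in its introns 7.53 to 52.2 kb from a start. The genes with 2 gained regions that ranked highest included Morn1, Cfl2, Disp1, Aff1, Pim1, Sgms1, Hdhd5, Ccdc88c and Crebbp. Aff1 and Crebbp, which encode a transcription elongation factor and a histone acetyltransferase, each had 1 of these at the promoter. Some of these genes changed in both directions: Nova1 and Hipk2 also had 1 gained region each, and Morn1 had 1 lost region.

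Runs of neighbouring changes were short. When changed regions of the same direction at most 50 kb apart were joined, 850 lost regions stood alone, 148 formed 74 pairs and 30 formed 10 runs of 3. Of the gained regions 463 stood alone, 38 formed 19 pairs and 9 formed 3 runs of 3. The tightest run, at chr12:77089793-77098368, held 3 lost regions in 8.58 kb and lay 128 to 136 kb upstream of Max, the partner of the Myc proteins. All 3 had a GATA word and no other region lay between them. Their −log10 q values at 0 h were 3.99 and 5.36, 11.3 and 5.67, and 7.19 and 7.43. The middle region stayed in all 6 intermediate libraries, and the first was in none.

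The other runs of 3 lost regions lay near Erv3, Gm9817, Rapgef2, Nova1, Robo2, Zfp217, Ddx4 and Slc38a9, Angpt1, and Furin and Man2a2. The Angpt1 run, chr15:42463316-42523772, lay in introns of this gene, which encodes angiopoietin-1, a ligand of the receptor Tie2, 154 to 213 kb from its start. Its regions had percentiles from 36.3 to 88.0, the highest among the runs, and 2 of the 3 had GATA words. In the Robo2 and Nova1 runs every region had a GATA word. No kept region lay inside any of these runs except that at Ddx4 and Slc38a9, which held 1.

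Runs of 3 gained regions lay near Dcaf12 and Ubap1 (chr4:41331056-41388210) and near Vasp, Rtn2 and Ercc1 (chr7:19264957-19333173). They spanned 57.2 and 68.2 kb. Vasp encodes an actin regulator and Ercc1 a DNA repair factor. The first of these runs also held a lost region, and the runs held 1 and 2 kept regions.

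At the gene lists, lost regions were most frequent near mast cell genes. The 30 mast cell and basophil symbols were nearest to 30 regions, of which 10 were lost (33.3%, against 4.90% of all regions) and none was gained. Distal regions alone gave 9 of 27 lost (33.3%, against 7.62%). Of the other regions 19 were mixed and 1 was kept. The 10 lost regions fell at 9 of the 17 genes with any region, and 7 of the 10 had a GATA word. Among these 10 was the Ndst2 promoter region, although all 4 libraries, both of 24 h included, had a peak within 1 kb of an Ndst2 start. No other list reached this share. With 1 library left out, 37.9% to 64.3% of the mast cell regions were lost, against 7.52% to 17.2% of all regions, and 1 was gained in each case.

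Cpa3, the carboxypeptidase of mast cell granules, had a lost region 1.90 kb upstream of its start, with −log10 q of 9.6 and 14.5 in the 0 h libraries (percentiles 73.2 and 86.5). Its 2 GATA words are in the sequence shown above, and 5 of the 6 intermediate libraries still listed it, among them both 2 h libraries. Rgs13, a regulator of G protein signalling in mast and B cells, had lost regions 7.74 kb upstream (7.93 and 6.98) and 23.4 kb upstream (8.76 and 6.39), each in 2 of the 6 libraries. Prss34, a mast cell protease, had 12.8 and 3.78 at a region 4.76 kb upstream with 3 GATA words. Near Cma1, mast cell chymase, a region 22.0 kb from the start had 8.83 and 9.01, and near Rgs1 a region 69.3 kb upstream had 5.52 and 8.61 and was listed in all 6 intermediate libraries. Ms4a2, the β chain of the high-affinity IgE receptor, had only 1 region, which was lost (5.07 and 3.67).

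**Figure D4:**
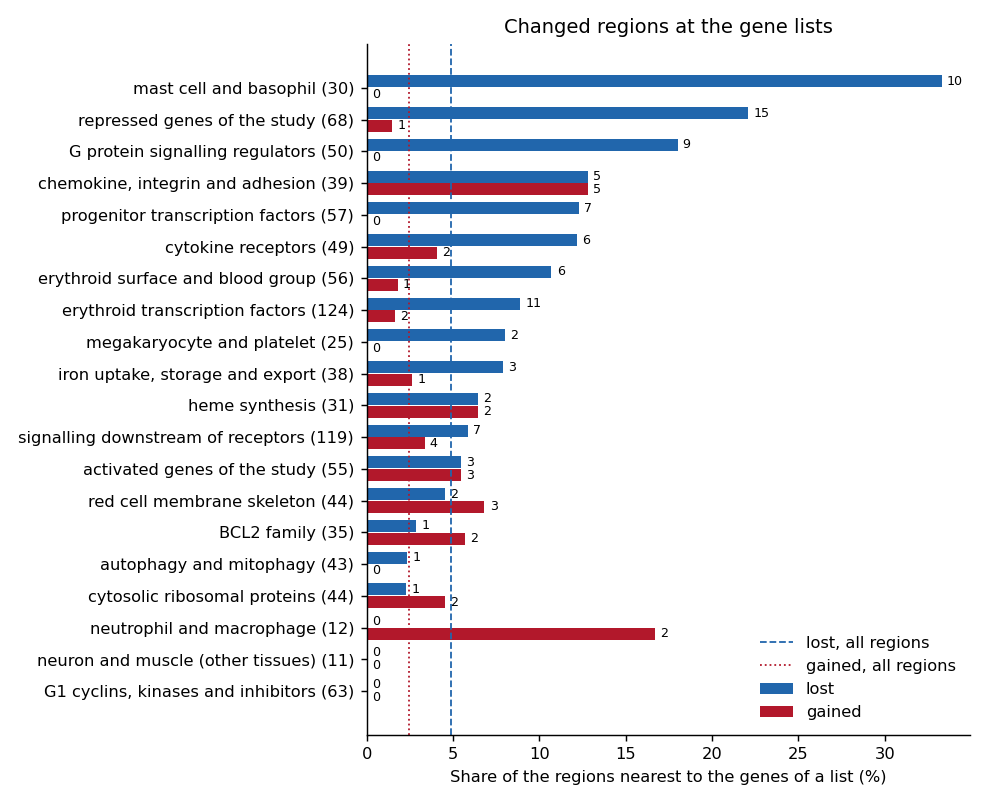
Share of the regions nearest to the genes of each list (x axis, %) that were lost or gained, for the lists described here with at least 10 regions (number of regions in brackets, number of changed regions at the bar ends). Dashed and dotted lines mark the 4.90% lost and 2.43% gained of all regions, and the mast cell and basophil bar reaches 33.3% lost.

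The progenitor genes include Gata2, a gene of the GATA switch. Of 57 regions nearest to progenitor transcription factors 7 were lost (12.3%) and none was gained, against 4.90% and 2.43% of all regions. The lost regions lay at Gata2, Ikzf2, Lmo4, Etv6, Myc and Erg. Distal regions alone gave 7 of 43 lost (16.3%, against 7.62% of all distal regions). The Gata2 region, chr6:88190434-88190982, was 3.18 kb upstream of its start with −log10 q of 6.33 and 3.0 at 0 h (percentiles 48.7 and 5.40), a weak peak in the second library, and 2 of the 6 intermediate libraries listed it. Its 200 bp hold 2 GATA words. Gata2 was nearest to 3 regions, 1 lost, 1 kept and 1 mixed. A kept region lay close to the lost one. Its summits at 24 h were 4.09 and 4.08 kb upstream of the start (percentiles 56.5 and 72.4 in replicates 1 and 2). A stronger lost region, chr6:88226389-88227025 (mean percentile 72.2), lay on the other side of the Gata2 start and was assigned to Dnajb8, whose start was nearer; it was picked out after its values were seen. The Lmo4 region, 151 kb upstream of this gene for a partner of LIM domain proteins, had 9.14 and 19.2. Erg, an ETS factor of stem cells, had 8.55 and 12.5 at a region 28.7 kb upstream with 2 GATA words, and Myc had 10.5 and 6.21 at one 236 kb downstream.

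Receptor genes carried changes in both directions. Of 49 regions at cytokine receptor genes 6 were lost (12.2%) and 2 gained (4.08%), against 4.90% and 2.43% of all regions. Kit, the SCF receptor, was nearest to 12 regions, with 2 lost, 1 gained, 1 kept and 8 mixed. The lost regions were 71.1 kb upstream (8.93 and 4.61 at 0 h) and 4.96 kb downstream in an intron (4.71 and 5.22), and neither was listed at 12 h. The gained region was 49.5 kb downstream in an intron, with 5.13 and 3.13 at 24 h, and was listed in both 12 h libraries. Igf1r, the receptor of insulin-like growth factor 1, also had 2 lost regions and 1 gained. At Il1rl1 the promoter region had 16.7 and 15.0 at 0 h (percentiles 93.8 and 87.5), was listed in 5 of the 6 intermediate libraries and in neither 24 h library, and a second lost region lay 10.8 kb upstream (3.74 and 5.64).

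**Figure D5:**
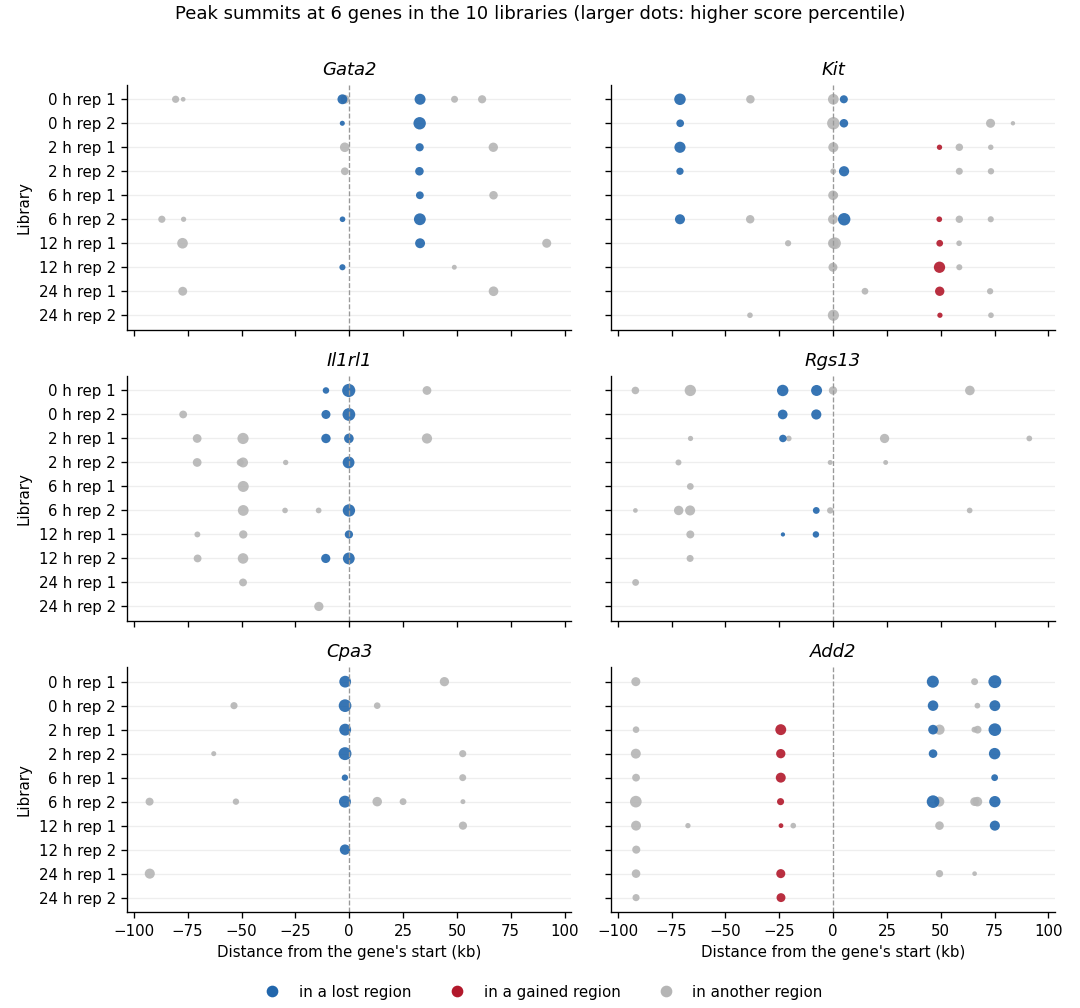
Peak summits in the 10 libraries (rows) within 100 kb of the most upstream start (dashed line) of Gata2, Kit, Il1rl1, Rgs13, Cpa3 and Add2 (x axis, kb in the direction of transcription). Blue dots lie in lost regions, red dots in gained regions and grey dots in regions that are neither lost, gained nor kept. Summits in kept regions, found here at Gata2 and Add2 in all 4 lists of 0 h and 24 h, are not drawn. Larger dots have a higher score percentile in their list. The blue dots at Cpa3 and at the Il1rl1 promoter run through 5 of the 6 libraries of 2 to 12 h and end before 24 h, and the red dots in the Kit gene begin at 2 h replicate 1.

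For capture of their promoters, the study had chosen genes whose RNA falls or rises during differentiation of these cells, of which 19 repressed and 22 activated genes were used here. The repressed list is not the study's complete list. Both come from the same study and overlap the mast cell and progenitor lists, so they are not independent of them. At the repressed genes 15 of 68 regions were lost (22.1%) and 1 was gained (1.47%), against 4.90% and 2.43% of all regions. The lost regions lay at 11 of the 19 genes (57.9%, against 8.17% of genes nearest to any region). Distal regions alone gave 14 of 58 lost (24.1%, against 7.62% of all distal regions). Besides those named above, lost regions lay at Sept9 (2), Fgf3, Gzmb and Tespa1. At the activated genes 3 of 55 regions were lost and 3 were gained (5.45% each, against 4.90% and 2.43% of all regions). The lost ones were near Bach1, Lpin2 and Abcb10, and the gained ones near Abcb10, Dmtn and Spns2.

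Erythroid transcription factor genes had 11 lost (8.87%) and 2 gained (1.61%) of 124 regions, against 4.90% and 2.43% of all regions. Distal regions alone gave 10 of 93 lost (10.8%, against 7.62% of all distal regions). Zfpm1, which encodes the GATA1 partner FOG1, had lost regions 2.72 kb downstream (5.86 and 6.43 at 0 h, with 3 GATA words) and 31.4 kb downstream (4.28 and 3.74) in its introns. Stat5a, a mediator of erythropoietin signalling, had lost regions 5.30 kb (8.90 and 8.10) and 31.3 kb (8.52 and 5.99) downstream, the latter within Stat3. Sox6 and Ikzf1 each had 2 lost regions, Myb had 1 at its promoter (5.59 and 4.89), and Bach1 had 1. The gained regions were 223 kb upstream of Klf3 (7.13 and 4.88 at 24 h) and 11.4 kb downstream of the start of Foxo3, a forkhead factor of late erythroid cells, in an intron (5.55 and 4.51, with 2 GATA words).

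Globin, heme and iron genes were represented by few regions. Of the 5 regions nearest to globin genes 1 was lost, 4.34 kb from Hbb-bt (4.97 and 4.31). Heme synthesis genes had 2 lost and 2 gained of 31 (6.45% each, against 4.90% and 2.43% of all regions). The promoter of Alad, the second enzyme of the pathway, was lost (4.60 and 7.43 at 0 h, listed in 5 of the 6 intermediate libraries). Uros, the uroporphyrinogen III synthase, gained an intronic region with 4.64 and 8.82 at 24 h and 3 GATA words. Abcb10, a mitochondrial transporter needed for heme synthesis, gained one 4.04 kb downstream (12.6 and 3.8, in all 6 intermediate libraries) and lost one 7.20 kb upstream (9.30 and 3.64). Iron genes had 3 lost and 1 gained of 38 (7.89% and 2.63%), at Steap3, Fbxl5 and Ncoa4.

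Red cell membrane genes gave 2 lost and 3 gained of 44 (4.55% and 6.82%, against 4.90% and 2.43% of all regions). Add2, encoding β-adducin of the membrane skeleton, had lost intronic regions with 10.3 and 7.62 (percentiles 77.0 and 56.8) and with 14.7 and 8.18 (90.5 and 61.0) at 0 h, each with 2 GATA words. The first was last listed at 6 h and the second at 12 h. Gained regions lay at the promoters of Tpm3 (4.01 and 4.09 at 24 h) and Ermap (3.03 and 3.51) and in an intron of Dmtn, which encodes dematin (3.38 and 4.54). Surface and blood group genes had 6 lost and 1 gained of 56 (10.7% and 1.79%, against the same overall shares). Ackr1 and Cd47 had 2 lost regions each, and Cd44 had a gained promoter region (2.77 and 4.45 at 24 h). The Cd47 region 229 kb downstream had 15.4 and 7.62.

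Adhesion genes showed equal numbers in both directions. Of 39 regions 5 were lost and 5 gained (12.8% each), against 4.90% lost and 2.43% gained of all regions. Itga4 and Itgb1, which encode the chains of the VLA-4 fibronectin receptor of erythroblasts, each had 2 lost regions and 1 gained. Those of Itga4 were weak peaks. Its lost regions, 156 and 129 kb upstream, had mean percentiles of 12.7 and 27.5, and its gained region 4.13 (2.91 and 2.01 at 24 h). The gained region of Itgb1 was at the promoter, with 4.47 and 5.09 at 24 h, and all 6 intermediate libraries listed it. The gained promoter region of Itgb7 belongs to this list too, and the other changes were at Ccr1 and Ccr2, genes of chemokine receptors. Regulators of G protein signalling had 9 lost and none gained of 50 (18% lost, against 4.90% of all regions). Of these 9, 3 are the Rgs1 and Rgs13 regions. Others were near Ptger4, a prostaglandin E receptor, where the region 415 kb upstream had 18.8 and 10.9, and near P2ry1, Rgs10, Rgs14 and S1pr1.

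The remaining lists were near the background (4.90% lost and 2.43% gained of all regions) or had few regions. Signalling genes downstream of Kit and other receptors had 7 lost (5.88%) and 4 gained (3.36%) of 119, with Inpp5d and Pik3r1 in both groups. Megakaryocyte genes had 2 lost of 25, at Plek and F2rl2. Neutrophil and macrophage genes had 2 gained and none lost of 12, at Fcgr3 and Ncf1. Genes of the BCL2 family had 1 lost (Bcl2l13) and 2 gained of 35. The gained regions were at Bcl2 (6.34 and 3.02) and at Bcl2l1, which encodes the survival factor BCL-XL of late erythroblasts (8.26 and 5.77 at 24 h, with 2 GATA words in the sequence shown above). Cytosolic ribosomal protein genes had 1 lost and 2 gained of 44, and autophagy genes 1 lost of 43. The 63 regions at G1 cyclin, kinase and inhibitor genes, the 11 at neuron or muscle genes and the 1 at a lymphocyte gene included no changed region.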

How the data were processed

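ATAC-seq summit lists of 10 G1E-ER4 libraries (5 time points, 2 each) were used. The authors trimmed reads, aligned them to mm10, kept unique reads and ran MACS (no model) on each library. Bowtie2 is named in the methods, and the submitters' processing notes list Bowtie 1.0.0, MACS2 and Picard (its role not given in the sources used here). The deposited lists give 1 bp summits and, as score, −log10 of the q-value, with a lowest value of 1.30; it is not scaled between libraries. No shift for the Tn5 cut is stated, so summit positions may be off by a few bases, and depth is unknown.

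Computed here from the summits were merged regions (250 bp on each side), their classes, the nearest protein-coding start (GENCODE M21, GRCm38.p6, 41157 starts of 21644 genes; sequence from RefSeq's GRCm38.p6 assembly), GATA and other words, runs and gene list counts (Python 3.11.15, numpy 2.4.6, pandas 2.3.3, scipy 1.17.1, pysam 0.24.0). Peaks on other chromosomes (5 to 9 per list) were left out. Of 520 list symbols 6 had no gene in the annotation. The merging and classes were tested on simulated summits.

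The members and the gene lists were chosen with earlier results of these data known, and part of the lists came from an earlier analysis of the same files. Named were the runs of 3 or more changed regions, the 10 genes with most lost and most gained regions, up to 6 genes per list and direction, and the 10 highest-ranked regions of each direction with promoters among the 30 highest. Ndst2 was named in addition, for its peaks at 24 h. Tests over libraries were exact permutation tests, two-sided. Counts over regions have no p, since regions are not replicates. No peak had the same position and score in a pair of lists. The correlations with hours were added after the data had been seen.

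Alternatives were other windows (100 or 500 bp), lists of equal size, a minimum score of 3 or 5, no summit of the other time point within 1000 bp, each library left out, merging over all 10 lists, promoters within 500 or 2500 bp, other word windows, nearest starts within 100 kb, other run distances, and all list genes with a start within 100 kb. Results of a few genes, 1 gene list and some sequences are not reported here. Replicate numbers are shared by the time points, but nothing in the labels says that they mark a common culture.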

Additional observations from a re-analysis of the deposited data

How the results depend on the processing

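The counts of lost and gained regions held within 1.5 times under other windows, equal lists, a score of at least 3, no summit of the other time point nearby and merging over 10 lists. A score of at least 5 left 307 gained regions and 304 genes near them. The classes require agreement of both libraries, so leaving out 1 library always enlarged them: lost regions ranged from 1525 to 3450 and gained from 782 to 3811, genes from 1320 to 2648 and from 737 to 3144, runs from 21 to 175 and from 5 to 177, with the most lost regions without 0 h replicate 2 and the most gained without 24 h replicate 2. The GATA word share then ranged from 45.4% to 54.0% of lost regions (distal 51.3% to 71.8%) and from 26.6% to 30.6% of gained (distal 30.2% to 42.8%), and the promoter share from 15.6% to 29.1% and from 19.5% to 42.3%. Lost regions listed at 12 h ranged from 28.6% to 61.2% and gained from 25.8% to 69.9%, and r with hours from -0.509 to -0.469 and from -0.0109 to 0.106. The difference in peaks ranged from -2780 to 2094. Lost regions ranged from 11 to 18 at mast cell genes, 18 to 27 at repressed, 5 to 8 at activated and 121 to 203 at all list genes, and gained ones numbered 1, 1 to 11, 4 to 8 and 41 to 159.

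With the replicate block, in which the change had to hold within each replicate number, the counts were 1028 and 510, since the rule already requires this. Within replicate 1 alone 4222 regions were lost and 4392 gained, and within replicate 2 alone 3394 and 2422.

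The promoter share of lost regions was 17.7% (100 bp windows), 15.6% (equal lists), 15.8% (score at least 3), 25.6% (score at least 5), 11.4% (no other summit nearby), 12.2% (10 lists), and 11.5% or 16.0% with promoters within 500 or 2500 bp, and that of gained regions 43.0% (score at least 5). The GATA word share of lost regions was 62.7% (100 bp windows), 58.8% (score at least 5) and 80% (whole region), and of distal lost regions 76.0% and 87.5% for the last pair of settings. For gained regions it was 32.5% and 37.1% (100 and 500 bp windows), 34.4% (equal lists), 35.3% and 32.6% (scores 3 and 5), 37.0% (no other summit nearby), 38% (10 lists), 55.9% (whole region) and 36.7% (about the summit), and for distal gained regions 50.3% (score 5) and 64.5% (whole region). Lost regions had GATA words more often than gained ones in each setting run, and promoters less often in each except without 24 h replicate 1 or 2 and within replicate 1 alone (23.6% of lost and 22.4% of gained).

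Runs of lost regions numbered 5 in equal lists, and 3 or 21 with 25 or 100 kb between neighbours. Runs of gained regions numbered 0 (score 5), 0 and 5. Equal lists gave 8 lost regions at repressed and 5 gained at activated genes. A score of at least 5 gave 6 lost at repressed, 1 lost and 1 gained at activated, 0 gained at repressed and 9 gained at all list genes, and 100 bp windows 5 lost at activated genes. Every list gene within 100 kb gave 8 lost and 10 gained at activated, 3 gained at repressed, 3 gained at mast cell and 132 lost and 72 gained at all list genes. At 12 h, 56.8% of lost and 68.8% of gained regions were listed with equal 0 h and 24 h lists, 39.3% and 52.0% with equal intermediate lists (added after the data were seen), and 57.5% of gained at a score of 5. The causes were not tested. Unknown depth limits every absence.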
